A study of Homo sapiens with 32 samples.

Results

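K-562 is a human suspension line from chronic myeloid leukemia that carries the fusion kinase BCR::ABL1, the target of imatinib. The comparison described here sets a K-562 line resistant to 0.5 µM imatinib (lowIM-R1, line 1) against a second line resistant to the same concentration (lowIM-R2, line 2). The members are 8 of the 32 arrays of the series, chosen by their source name: 4 technical replicate arrays of line 1 and 4 of line 2. Each line was also placed against 8 arrays of treatment-naive K-562 cells (4 titled S and 4 titled K, called naive S and naive K). The other 16 arrays hold 2 lines resistant to 2 µM imatinib (highIM-R1 and highIM-R2) and 2 lines resistant to 0.1 µM nilotinib. Resistant cells came from stepwise raised drug concentrations. The growth text is identical for naive and resistant cells and describes drug-free medium, so the drug present at harvest is not known. Each group is thus 1 cell population, its arrays share an origin, and the labels do not say whether its arrays came from separate RNA extractions or whether a line is a clone. Every error and p-value below therefore measures the spread between arrays and not the spread between lines.

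Imatinib blocks the kinase activity of BCR::ABL1, on which CML cells rely for growth and survival signals through the MAPK, STAT5 and PI3K pathways. Lines grown under the drug can survive through changes in the kinase itself, through other kinases, through drug transport or through altered metabolism, and lines selected apart need not take the same route. K-562 cells have an abnormal and unstable karyotype and sit between the erythroid and megakaryocytic fates, so gene dosage and lineage genes can drift between cultures.

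Values are log2 intensities, with the base of the logarithm inferred from their range of 1.24 to 14.2. Median intensities over the 14884 named genes were 6.48 to 6.50 in line 1, 6.44 to 6.47 in line 2 and 6.43 to 6.53 in the naive arrays. Arrays of the same set correlated across genes at r of 0.971 to 0.985 in line 1, 0.985 to 0.991 in line 2 and 0.952 to 0.982 within the naive sets. Array 4 of line 1 had the lowest mean r with its set (0.974, against 0.978 to 0.982 for the other line 1 arrays). Along the main direction of variation among arrays of the same set, line 1 averaged 6.09 and line 2 averaged 5.69. Naive S and naive K averaged -20.8 and -25.1. The mean on this technical axis was thus level between the lines but not between a line and naive cells. The line 1 arrays were spread more widely along it, from -15.2 to 15.5, against 1.00 to 8.68 in line 2. With this axis taken out, line 1 had 429 called genes against naive, in place of 615, and line 2 had 486, in place of 712. The calls between the lines stayed at 96 higher and numbered 63 lower, in place of 62. Of 14 marker genes of K-562 as an erythroleukemia line, 5 were measured (GATA1, TAL1, KLF1, LMO2 and EPOR). With the size condition of at least 1, 0 were called between the lines by limma. Without it 3 passed at an adjusted p under 0.05, all lower in line 1: GATA1 (-0.57), LMO2 (-0.60) and EPOR (-0.58). TAL1 and KLF1 differed by 0.10 and 0.04 and did not pass. GATA1, the master regulator of erythroid and megakaryocytic genes, averaged 9.12 in line 1, 9.69 in line 2 and 9.37 in naive cells.

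The lines differed by at least 1 on the log2 scale at an adjusted p under 0.05 (limma) in 158 genes, or 1.06% of 14884. Of these 96 were higher in line 1 (0.645%) and 62 were lower (0.417%), and 11 differed by at least 2. Without the size condition 2788 genes passed (18.7%), 1482 higher (9.96%) and 1306 lower (8.77%) in line 1; a test against technical spread passes small differences, so the size condition was kept for the calls below. The arrays of the lines did not overlap for 155 of the 158 called genes, against 3286 of all 14884 genes. The call nearly forces this, since it needs a gap of at least 1 and the median standard error over all genes was 0.125. By the same call naive S and naive K, which share a label, differed in 41 genes (0.275%), the 2 high dose lines in 833 (5.6%) and the 2 nilotinib lines in 566 (3.8%). The root mean square distance between the set means was 0.312 between line 1 and line 2, against 0.257 between naive S and naive K. Line 1 lay 0.483 and 0.493 from naive S and naive K, and line 2 lay 0.498 and 0.527 from them. The called genes comprised 127 protein-coding genes, 15 miRNA genes, 9 long non-coding RNAs, 4 pseudogenes, 2 other non-coding RNAs and 1 vault RNA, and 13 of them averaged under 6 in all 8 sets of arrays.

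**Figure D1:**
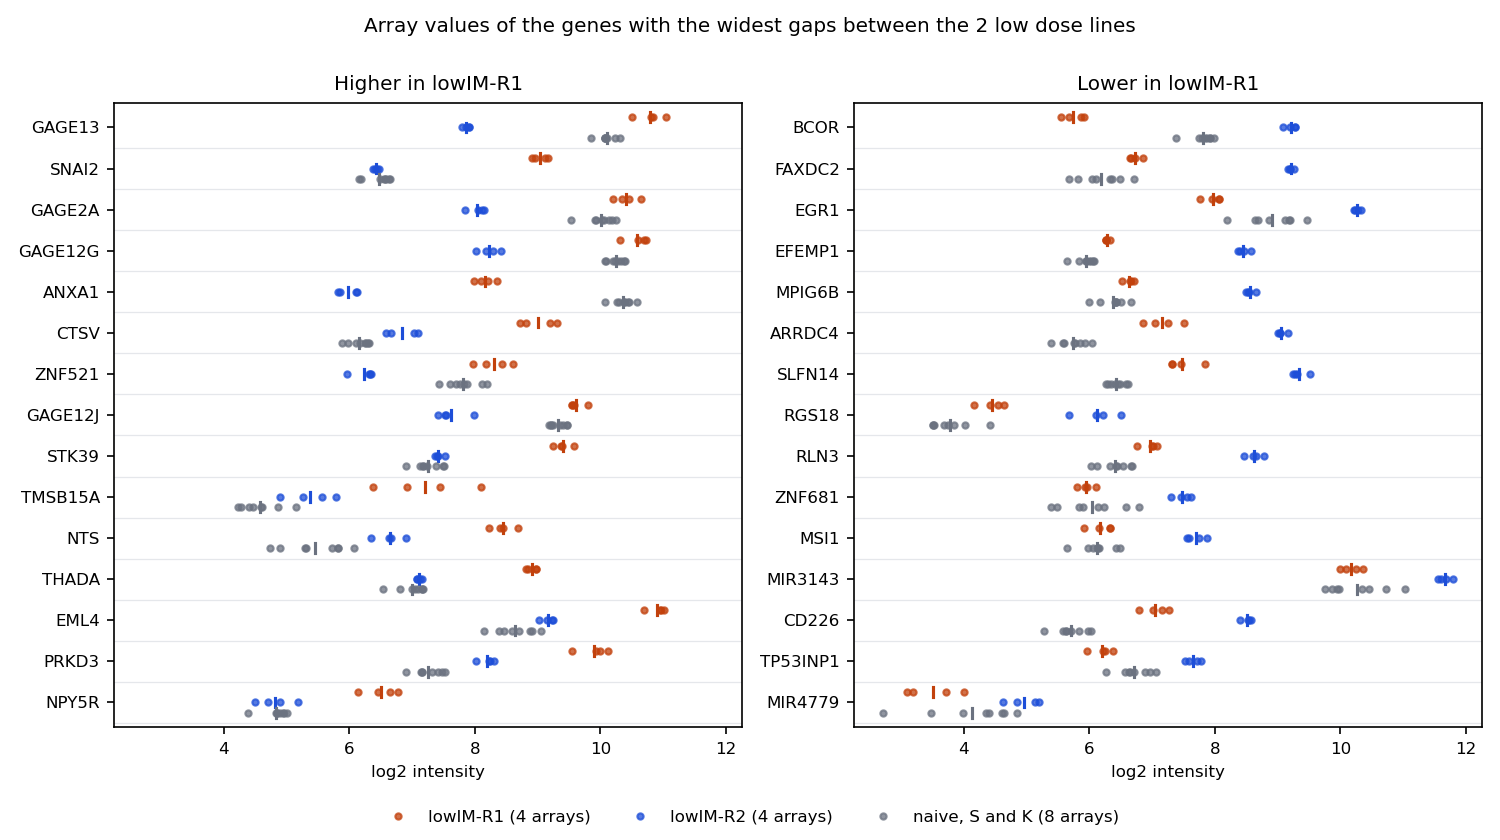
Log2 intensity of each array (points) and set mean (ticks) for the 15 called genes with the largest positive and the 15 with the largest negative difference of lowIM-R1 minus lowIM-R2. For each gene the rows from top to bottom are lowIM-R1, lowIM-R2 and naive cells; the points of the 2 lines do not overlap for any of these genes, as the rule that chose them required.

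Against naive cells, line 1 had 615 called genes (4.13%), 473 higher (3.18%) and 142 lower (0.954%). Line 2 had 712 (4.78%), 537 higher (3.61%) and 175 lower (1.18%). These comparisons use the same naive arrays. A line was said to have moved for a gene where it was called against naive and its mean lay outside both naive set means. Of the 158 genes that differed between the lines, 51 moved in line 1 only (45 above naive, 6 below), 40 in line 2 only (26 above, 14 below), 18 in both lines to the same side and 1, BCOR, in the lines to opposite sides. Among the 18, line 1 lay farther from naive for 4 and line 2 for 14. The remaining 48 moved in neither line by the size required. In each of them the lines stood on opposite sides of the naive mean. The rule nearly fixes this: lines on the same side, each less than 1 from naive, cannot differ by 1. Over all 158 genes, the lines stood on opposite sides of the naive mean in 80, these 48 included. The make-up differed by direction: of the 96 genes higher in line 1, 45 had moved in line 1 only and 14 in line 2 only, whereas of the 62 lower in line 1, 6 had moved in line 1 only and 26 in line 2 only. In both directions the largest class among the genes of a moved line was an increase of 1 line over naive cells.

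**Figure D2:**
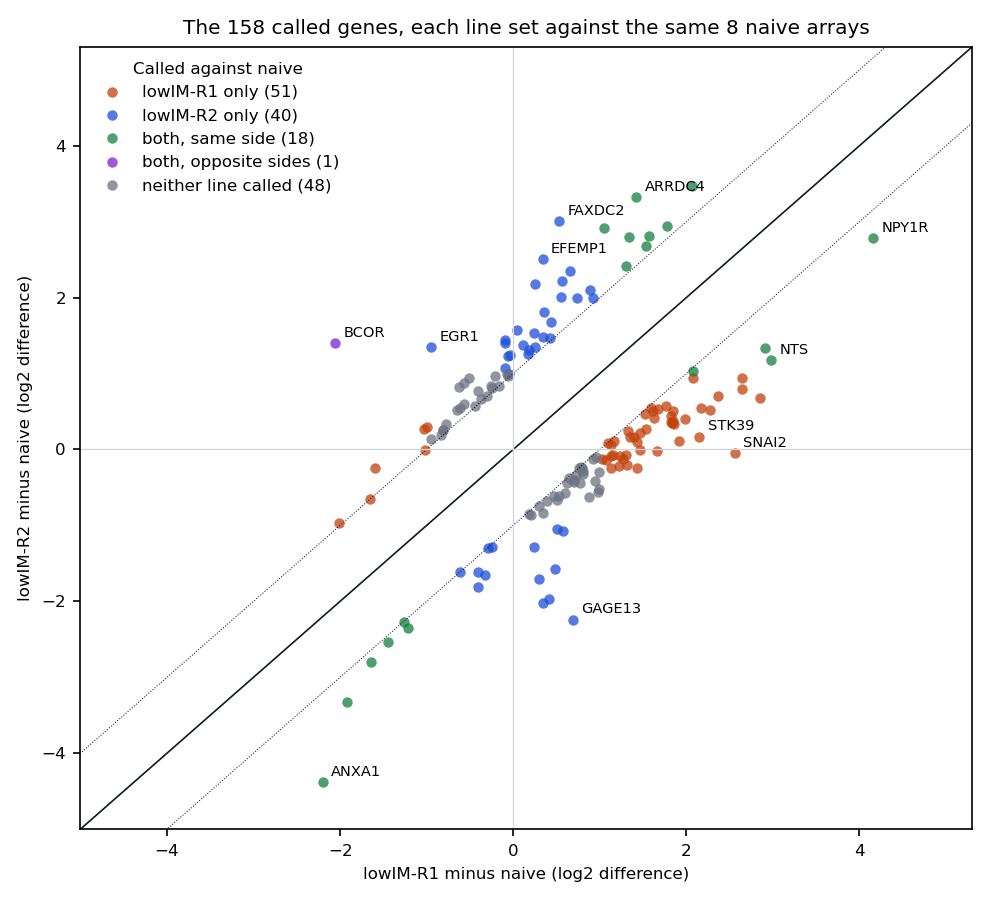
Difference from the naive mean in lowIM-R1 (x axis, log2) and lowIM-R2 (y axis, log2) for the 158 called genes, coloured by which line was called against naive; the solid line marks equal differences and the dotted lines a gap of 1. Both axes subtract the same 8 naive arrays, and BCOR is the point below naive in lowIM-R1 and above it in lowIM-R2.

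BCOR, a corepressor that joins BCL6 and a variant polycomb complex, showed the widest gap of all. It read 5.91, 5.86, 5.54 and 5.67 on the line 1 arrays and 9.27, 9.27, 9.20 and 9.08 on the line 2 arrays, with the 8 naive arrays between 7.38 and 7.99 (median 7.86). The naive arrays thus stood between the lines, with no overlap on either side. The difference was -3.46 ± 0.11 (SE; 11-fold, adjusted p = 2.46e-21 in limma), made up of -2.06 ± 0.10 for line 1 against naive and 1.40 ± 0.10 for line 2 against naive. The change did not extend along the chromosome at that size. Of the 10 measured genes next to BCOR on the X chromosome, 0 met the size condition and so 0 were called by limma. Without that condition 4 passed at an adjusted p under 0.05 (limma), the same count as unadjusted. They were MED14, a mediator subunit (-0.89), CXorf38 (-0.69), MID1IP1 (-0.37) and MIR1587 (0.68). The differences of the 10 ran from -0.89 to 0.68. KDM6A, an X-linked histone demethylase that opposes polycomb silencing, was also lower in line 1 than in line 2. It averaged 7.63 ± 0.29 in line 1 and 8.66 ± 0.13 in line 2 (SD, n = 4 arrays each), against a naive mean of 7.69. Unlike for BCOR, line 1 was thus near naive and line 2 stood above it.

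Other transcription factors differed in single lines. SNAI2 (Slug), a zinc finger repressor of the mesenchymal transition, read 9.17, 9.11, 8.91 and 8.96 in line 1 and 6.41, 6.48, 6.38 and 6.44 in line 2, against 6.16 to 6.65 in naive cells (median 6.56). All line 1 arrays were high, and line 2 fell within the naive range. The difference was 2.61 ± 0.11 (6.1-fold, adjusted p = 1.07e-18, limma). ZNF521, a zinc finger cofactor of early blood progenitors, went the other way relative to naive: it read 8.61, 8.43, 8.18 and 7.97 in line 1 and 6.33, 6.32, 5.97 and 6.34 in line 2, with naive arrays from 7.43 to 8.19. Here line 2 was the low one, by -1.58 ± 0.12 against naive. No neighbour reached the size condition: 0 of the 10 measured genes around SNAI2 and 0 of the 10 around ZNF521 were called by limma. Without that condition 1 and 2 of them passed at an adjusted p under 0.05 (2 and 4 unadjusted). SPIDR, near SNAI2, was higher in line 1 by 0.53 ± 0.10 (adjusted p = 0.000127, limma).

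EGR1, an immediate early factor induced by MAPK signalling, read 8.07, 8.07, 7.95 and 7.76 in line 1 and 10.22, 10.33, 10.23 and 10.28 in line 2, around a naive range of 8.19 to 9.46 (median 8.98). Every line 1 array lay under every naive array and every line 2 array lay above. The means were 7.96 in line 1, 10.26 in line 2 and 8.91 in naive cells. Line 1 fell short of the size condition, so the gene was counted as moved in line 2 only. The difference was -2.30 ± 0.11 (adjusted p = 1.07e-16, limma), and a second feature of the gene gave -1.18. EGR1 was the 1 called gene among 19 measured MAPK output and immediate early genes, whose median difference was -0.13 against 0.02 over all genes. MEF2C, a MADS-box factor of lymphoid and megakaryocytic cells, averaged 4.98 ± 0.34 in line 1 and 6.34 ± 0.10 in line 2 against 6.59 in naive cells, a line 1 change; a second, dimmer feature gave -0.13. MSI1 (Musashi-1), an RNA-binding protein of stem cells, was raised in line 2 only, at 6.17 ± 0.19 in line 1, 7.69 ± 0.14 in line 2 and 6.13 in naive cells. NRIP1, a nuclear receptor corepressor, was raised by the size required in line 1 only (9.27 in line 1, 7.74 in line 2, 7.42 in naive cells), and its second feature gave 0.38.

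The GAGE genes, a family of cancer-testis antigens repeated in tandem on the X chromosome and normally silent outside the germ line, made up 5 of the 96 genes higher in line 1. GAGE13 read 11.04, 10.83, 10.51 and 10.80 in line 1 and 7.90, 7.79, 7.90 and 7.86 in line 2, against 9.85 to 10.31 in naive cells (median 10.08). Line 2 was the line that had moved: its difference from naive was -2.24 ± 0.09, while line 1 stood 0.69 ± 0.09 above naive. The difference between the lines was 2.93 ± 0.10 (7.63-fold, adjusted p = 6.82e-21, limma). GAGE2A differed by 2.38 ± 0.13, GAGE12G by 2.36 ± 0.13, GAGE12J by 2.00 ± 0.12 and GAGE12H by 1.52 ± 0.12, and each had moved in line 2 only. Of the other measured members, GAGE12C differed by 0.93 ± 0.16 and the dim GAGE10 by -0.04 ± 0.29, so 6 of the 7 measured members lay above 0. The 5 called members stayed called under each of 3 other scalings (a shift of arrays to equal medians, quantile normalization, and removal of the technical axis). The copies are nearly alike in sequence, as their promoters show, and the array features may not tell them apart, so the 5 calls are not 5 separate measurements. Over the 300 bases around the annotated start, GAGE13 and GAGE2A differ at 1 position, in capitals below. The measured copies other than GAGE10 were identical to GAGE2A or, for GAGE13, 99.7% identical, with GAGE12G compared over the 297 bases its window shares. GAGE10 was 66.6% to 67.1% identical to the others without gaps. The promoters are from RefSeq (GRCh38.p14, plus strand, 5′ to 3′), GAGE13 at chrX:49331332-49331631 and GAGE2A at chrX:49589246-49589545.
GAGE13: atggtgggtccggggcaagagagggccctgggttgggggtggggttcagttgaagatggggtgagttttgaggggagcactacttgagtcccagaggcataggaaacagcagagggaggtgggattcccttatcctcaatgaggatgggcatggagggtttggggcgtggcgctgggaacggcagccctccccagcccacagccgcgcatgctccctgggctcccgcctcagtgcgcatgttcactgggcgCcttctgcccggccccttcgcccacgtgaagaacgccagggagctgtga
GAGE2A: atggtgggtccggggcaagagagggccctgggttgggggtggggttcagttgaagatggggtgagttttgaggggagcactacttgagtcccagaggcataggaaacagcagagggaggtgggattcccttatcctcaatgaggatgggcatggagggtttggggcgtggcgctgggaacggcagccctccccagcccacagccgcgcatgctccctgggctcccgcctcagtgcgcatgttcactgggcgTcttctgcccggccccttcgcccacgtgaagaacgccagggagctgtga

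Other cancer-testis genes did not follow GAGE in 1 direction. Of 11 measured cancer-testis antigens on the list used, 3 were higher in line 1 (GAGE2A, GAGE12J and CT55) and 1 was lower (PRAME), with a median difference of -0.03. CT55 read 7.93, 7.90, 7.30 and 7.54 in line 1 and 5.97, 6.06, 6.02 and 5.94 in line 2, against 5.51 to 6.58 in naive cells, so that line 1 had moved. PRAME, a melanoma antigen that restrains retinoic acid signalling, averaged 10.40 ± 0.12 in line 1 and 11.46 ± 0.04 in line 2 against 10.45 in naive cells, a line 2 change that just met the size condition (1.00 ± 0.08).

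Neuropeptide genes and their receptors gave 3 calls among 35 measured, all higher in line 1 (0.645% of all genes were called higher), and the list's median difference was 0.10. NTS, which encodes neurotensin, read 8.69, 8.40, 8.22 and 8.45 in line 1, 6.67, 6.63, 6.35 and 6.91 in line 2, and 4.74 to 6.07 in naive cells. Both lines stood above every naive array, and line 1 stood above line 2 by 1.80 ± 0.14 (adjusted p = 2.41e-11, limma). The receptors for neuropeptide Y encoded by NPY1R and NPY5R lie next to each other on chromosome 4. NPY1R read 10.72, 9.81, 9.45 and 10.11 in line 1 and 8.91, 8.43, 8.37 and 8.87 in line 2, against 5.62 to 6.21 in naive cells. It was therefore far above naive in both lines (4.16 ± 0.17 in line 1 and 2.78 ± 0.17 in line 2). NPY5R read 6.46, 6.77, 6.64 and 6.13 in line 1 and 4.70, 5.18, 4.50 and 4.89 in line 2, where the naive arrays lay between 4.39 and 5.01. It was thus above naive in line 1 and near the naive level in line 2. The other 9 measured neighbours of NPY1R were not called. RLN3, the neuropeptide relaxin-3, went the opposite way: it averaged 6.96 ± 0.14 in line 1 and 8.63 ± 0.13 in line 2 against 6.40 in naive cells. By the size condition this was a line 2 change, of 2.22 ± 0.11.

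The alpha-arrestins TXNIP and ARRDC4, related adaptors that restrain glucose uptake, were above naive in both lines and lower in line 1 than in line 2. TXNIP read 9.28, 9.09, 9.16 and 8.86 in line 1 and 10.61, 10.49, 10.43 and 10.53 in line 2, against 6.42 to 7.52 in naive cells. ARRDC4 averaged 7.16 ± 0.28 in line 1 and 9.06 ± 0.07 in line 2, against 5.39 to 6.04 in naive cells. For both genes the 3 groups of arrays did not overlap, with line 2 the highest and naive the lowest. The differences between the lines were -1.42 ± 0.14 for TXNIP, with -1.50 from a second feature, and -1.90 ± 0.12 for ARRDC4 (adjusted p = 1.66e-09 and 7.94e-14, limma). DDIT4, a brake on mTORC1 that energy and amino acid stress induce, was below naive in both lines and less so in line 1: 8.18 ± 0.19 in line 1, 7.17 ± 0.03 in line 2 and 9.44 in naive cells. Of the 18 measured alpha-arrestins, sestrins and mTORC1 brakes, 1 was called higher in line 1 and 2 lower.

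TXNIP transcription is known to respond to glucose through the MondoA and MLX factors, which bind a carbohydrate response element made of a pair of E-box-like motifs. Its promoter is shown because the gene moved with its relative ARRDC4. The letters searched on both strands were CACGNG and CNCGNG separated by 5 bases of any kind. The window of 300 bases from RefSeq (GRCh38.p14, minus strand, 5′ to 3′, chr1:145996530-145996829) holds 1 match, in capitals, at positions -88 to -72 from the annotated start. In the same window of ARRDC4 there were 0 matches. Of 27305 promoters of this length, 143 (0.524%) hold a match, and of the 110 called genes with a promoter in the table TXNIP was the 1 with a match.
TXNIP: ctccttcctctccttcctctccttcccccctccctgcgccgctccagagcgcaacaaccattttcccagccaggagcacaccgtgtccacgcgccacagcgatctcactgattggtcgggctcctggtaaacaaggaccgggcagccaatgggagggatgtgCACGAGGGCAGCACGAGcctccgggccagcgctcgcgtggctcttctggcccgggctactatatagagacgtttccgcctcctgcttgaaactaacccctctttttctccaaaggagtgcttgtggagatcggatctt

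Stress and p53 target genes gave 3 calls, read beside a share of 1.06% called over all genes. In the integrated stress response list, 18 genes measured, DDIT4 was higher and PSAT1 lower in line 1, with a median of 0.22. PSAT1, an enzyme of serine synthesis and a target of ATF4, read 8.49, 8.56, 8.00 and 8.62 in line 1 and 9.44, 9.59, 9.22 and 9.56 in line 2, against 9.84 to 10.86 in naive cells; it was below naive in both lines and past the size condition in line 1 only (-2.01 ± 0.11, against -0.97 ± 0.11 in line 2). Its difference between the lines, -1.04 ± 0.13, fell under the size condition without array 3 of line 1 (-0.90) and without array 2 of line 2 (-0.99). TP53INP1, a p53 target that promotes autophagy and cell death, averaged 6.20 ± 0.17 in line 1 and 7.65 ± 0.12 in line 2 around a naive mean of 6.71, and it was the 1 call among 12 p53 targets.

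GP6 and 4 other genes known from megakaryocytes and platelets were lower in line 1 than in line 2, and all 5 were above naive in line 2. On the list of 15 measured megakaryocyte and platelet genes the 1 call was GP6, the platelet collagen receptor, and the list's median difference was 0.04. GP6 read 6.47, 6.63, 6.33 and 6.43 in line 1 and 7.85, 7.97, 7.89 and 7.93 in line 2, against 5.82 to 6.31 in naive cells. MPIG6B, an inhibitory receptor of megakaryocytes outside that list, read 6.71, 6.64, 6.67 and 6.52 in line 1 and 8.54, 8.50, 8.53 and 8.65 in line 2, against a naive median of 6.42 and a highest naive array of 6.66. The difference was -1.92 ± 0.09 (adjusted p = 1.6e-16, limma), and the 7 features of the gene gave -0.97 to -2.02. SLFN14, a ribosome-associated endoribonuclease whose mutation lowers platelet counts, averaged 7.48 ± 0.25 in line 1 and 9.33 ± 0.12 in line 2 against 6.43 in naive cells. RGS18, a G protein regulator of platelets, averaged 4.44 ± 0.21 in line 1 and 6.13 ± 0.34 in line 2 against 3.78 in naive cells. CD226 (DNAM-1), an adhesion receptor of lymphocytes and platelets, averaged 7.05 ± 0.20 in line 1 and 8.51 ± 0.08 in line 2 against 5.71 in naive cells. These last 4 genes were grouped with GP6 after their values were seen, so their common direction is a description only. The measured erythroid genes (18) and globin and heme genes (10) gave 0 calls between the lines by limma at this size, with medians of -0.17 and -0.10. Without the size condition 11 and 4 of them passed at an adjusted p under 0.05, the same counts as unadjusted.

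Among secreted, membrane and signalling proteins, ANXA1 (annexin A1, a membrane-binding and anti-inflammatory protein) read 8.35, 7.98, 8.10 and 8.21 in line 1 and 6.11, 5.85, 5.82 and 6.12 in line 2, against 10.07 to 10.58 in naive cells. Both lines lay below every naive array, line 2 the lower, and the lines differed by 2.18 ± 0.12 (4.55-fold). CTSV, a lysosomal cysteine protease, read 9.31, 9.20, 8.72 and 8.81 in line 1 and 7.03, 6.66, 6.59 and 7.10 in line 2, against 5.89 to 6.31 in naive cells. STK39 (SPAK), a kinase that controls ion cotransporters, read 9.58, 9.39, 9.25 and 9.37 in line 1 and 7.41, 7.39, 7.52 and 7.36 in line 2, against 6.91 to 7.51 in naive cells. By the size condition both were line 1 changes, of 2.85 ± 0.13 and 2.15 ± 0.09 against naive. For CTSV, though, every line 2 array also lay above every naive array. TMSB15A, a thymosin that binds actin monomers, varied more between arrays: 8.10, 6.92, 7.45 and 6.37 in line 1 and 5.57, 5.26, 4.89 and 5.78 in line 2. MT1F, a metal-binding metallothionein, averaged 8.14 ± 0.42 in line 1 and 6.48 ± 0.18 in line 2 against 5.78 in naive cells. S100A10, the partner of annexin A2, averaged 7.08 ± 0.27 in line 1 and 5.68 ± 0.33 in line 2 against 5.81 in naive cells.

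In the other direction, FAXDC2, a member of the fatty acid hydroxylase family, read 6.66, 6.65, 6.73 and 6.85 in line 1 and 9.16, 9.20, 9.26 and 9.20 in line 2, against 5.68 to 6.71 in naive cells. EFEMP1 (fibulin-3), an extracellular matrix glycoprotein, read 6.27, 6.32, 6.27 and 6.26 in line 1 and 8.40, 8.57, 8.37 and 8.47 in line 2, against 5.65 to 6.07 in naive cells. By the size condition both were line 2 changes, of 3.01 ± 0.12 and 2.51 ± 0.07 against naive, and the lines differed by -2.48 ± 0.14 and -2.17 ± 0.09. For EFEMP1, though, every line 1 array also lay above every naive array. FLT1, a receptor for VEGF, was likewise raised by the size required in line 2 only (6.08 ± 0.06 in line 1, 7.37 ± 0.07 in line 2, 5.84 in naive cells). ZNF681, a zinc finger gene of chromosome 19, averaged 5.95 ± 0.12 in line 1 and 7.48 ± 0.14 in line 2 against 6.04 in naive cells. The pseudogene AQP7P3 was above naive in both lines, at 8.56 ± 0.24 in line 1, 6.98 ± 0.14 in line 2 and 5.65 in naive cells.

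Part of the difference lay in runs of neighbouring genes. The running median of line 1 minus line 2 over 25 consecutive measured genes passed 0.4 in size in 7 stretches, against 0 for naive S minus naive K. The pair of high dose lines gave 11 such stretches and the nilotinib pair 14, so such runs are not particular to the low dose pair. The stretches hold 356 genes (2.39% of those placed) and 35 of the 96 genes higher in line 1, but 6 of the 62 lower. The stretches were chosen on this same difference, so the counts of its called genes and signs inside them describe the choice and test nothing. The longest, on chromosome 2 between SNX17 and ERLEC1, holds 98 measured genes, of which 94 were above 0, 67 were higher at an adjusted p under 0.05 (limma) and 25 (25.5%) were called higher. Its median was 0.51 between the lines, 0.74 for line 1 against naive and 0.06 for line 2 against naive, so line 1 was the line that moved. In the other resistant lines its median against naive was 0.05 to 0.17. Several of the genes with the widest gaps belong to it. THADA read 8.98, 8.98, 8.84 and 8.81 in line 1 and 7.12, 7.16, 7.08 and 7.07 in line 2, against 6.53 to 7.18 in naive cells. EML4, a microtubule-binding protein, differed by 1.75 ± 0.11, PRKD3, a protein kinase D, by 1.70 ± 0.14, and SOS1, the exchange factor that activates RAS, by 1.33 ± 0.09. EIF2AK2 (PKR), the kinase that senses double-stranded RNA, differed by 1.25 ± 0.09 and was the 1 call among 28 interferon-induced genes. EPCAM, an epithelial adhesion molecule, differed by 1.01 ± 0.13 and was the 1 call among 13 epithelial and fibroblast genes; it fell under the size condition without array 2 of line 1 (0.91) and without array 1 of line 2 (0.96). BIRC6, an inhibitor of apoptosis, differed by 1.20 ± 0.09. Of the 51 genes that moved in line 1 only, 21 lie in this stretch. Copy number was not measured, and its part in these runs was not tested.

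**Figure D3:**
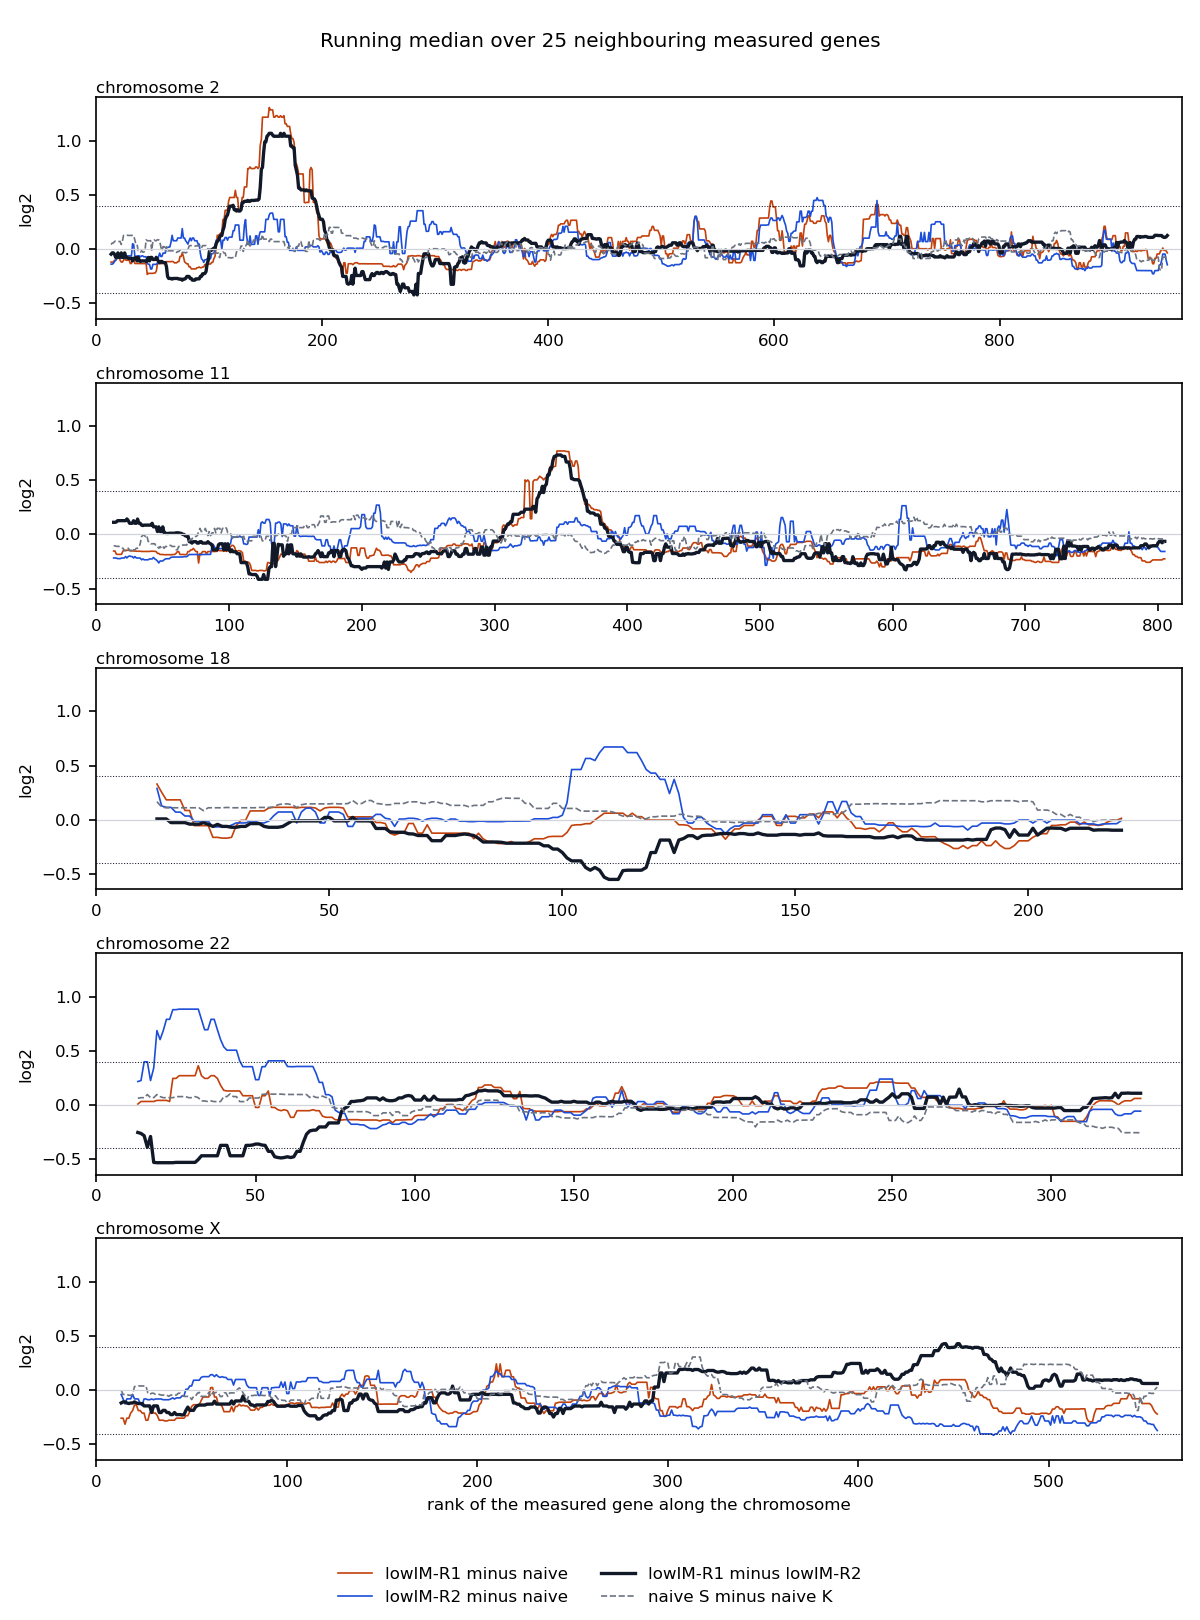
Running median of log2 differences over 25 neighbouring measured genes, by rank along the 5 chromosomes with a stretch past 0.4 or -0.4 (dotted lines). The heavy line, lowIM-R1 minus lowIM-R2, follows lowIM-R1 minus naive in the peaks on chromosomes 2 and 11 and mirrors lowIM-R2 minus naive on chromosomes 18 and 22; naive S minus naive K stays within the dotted lines.

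The other stretches were shorter or flatter. On chromosome 11 the 55 measured genes from TMEM132A to BAD had a median of 0.45 between the lines, 0.50 for line 1 and 0.07 for line 2 against naive, and 6 were called higher: FADS1 and FADS3 (fatty acid desaturases), ASRGL1, AHNAK (a giant scaffold protein), EEF1G (a translation elongation factor) and TTC9C. The 2 other features of ASRGL1 gave 0.20 and 0.42 (adjusted p = 0.52 and 0.111, limma over features), against 1.05 for the brightest, and a second feature of EEF1G gave 0.64. AHNAK read 8.37, 8.40, 8.66 and 8.28 in line 1 and 6.66, 7.08, 7.15 and 7.04 in line 2, against 6.95 to 7.39 in naive cells. EEF1G stood on both sides of naive, at 12.35 ± 0.09 in line 1, 11.22 ± 0.17 in line 2 and 11.82 in naive cells. On chromosome 22 the 71 genes from HDHD5-AS1 to CES5AP1, which include PRAME, had a median of -0.37 between the lines and 0.41 for line 2 against naive. On chromosome 18 the 38 genes from DSG3 to LOXHD1 had -0.41 and 0.45. In both, line 1 was near naive (0.04 and -0.02), so line 2 was the line that moved. On the X chromosome the 34 genes from GPC4 to VGLL1, with HPRT1 and CT55 among the 4 called, had a median of 0.40 between the lines, 0.10 for line 1 and -0.32 for line 2 against naive. The remaining 2 stretches, on chromosome 2 from MIR3126 to SMYD5 (28 genes) and on chromosome 11 from AKIP1 to FAR1 (32 genes), had medians of -0.41 and -0.40 between the lines. Chromosome 13 as a whole had a median of 0.23 over 313 genes (0.17 for line 1 and -0.01 for line 2 against naive).

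The miRNA genes gave 15 calls among 1072 measured (1.4%), 4 higher and 11 lower in line 1, a share near the 1.06% of all genes and so not a result about miRNA genes as a class. The labels do not say whether such a feature reports mature or precursor RNA. MIR3143, the brightest, read 10.09, 10.36, 9.99 and 10.24 in line 1 and 11.55, 11.68, 11.60 and 11.80 in line 2, against 9.76 to 11.02 in naive cells. Line 2 was above all naive arrays and line 1 was within their range, and the difference was -1.49 ± 0.12. MIR4779, a dim feature, averaged 3.50 ± 0.43 in line 1 and 4.95 ± 0.27 in line 2, with naive arrays spread from 2.71 to 4.85. Among the called miRNA genes 3 lie in the imprinted cluster of chromosome 14, where many miRNAs are processed from long maternal transcripts: MIR493, MIR300 and MIR544A. MIR544A read 6.37, 7.09, 6.46 and 6.72 in line 1 and 8.00, 7.84, 8.08 and 7.91 in line 2, against 5.96 to 7.39 in naive cells. MIR300 averaged 4.26 ± 0.27 in line 1 and 5.35 ± 0.28 in line 2, and MIR493 averaged 4.47 ± 0.45 in line 1 and 5.65 ± 0.20 in line 2. All 3 were higher in line 2 and near naive in line 1. The cluster as a whole did not share that size: of 50 measured miRNA genes from MIR493 to MIR656, 3 were called lower, 32 lay below 0 and 17 above, and the median was -0.12. RefSeq mature sequences (GRCh38.p14) were found for 13 of the 15 called miRNA genes, 18 sequences in all, and 0 of these shared a seed. The mature products of the chromosome 14 genes, all on the plus strand, are shown with the seed (bases 2 to 8) in capitals, at chr14:100869075-100869096 and chr14:100869116-100869137 for MIR493, chr14:101041414-101041435 for MIR300 and chr14:101048712-101048733 for MIR544A. They show 4 different seeds in the called genes of this 1 cluster.
hsa-miR-493-5p: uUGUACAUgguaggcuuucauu
hsa-miR-493-3p: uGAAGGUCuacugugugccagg
hsa-miR-300: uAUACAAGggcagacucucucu
hsa-miR-544a: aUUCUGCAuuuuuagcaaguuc

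For the 48 genes that moved in neither line, the lines stood at shorter distances on both sides of naive, as the rule nearly requires. GALM, a galactose-metabolising enzyme in the chromosome 2 stretch, averaged 8.27 ± 0.13 in line 1 and 6.73 ± 0.11 in line 2 around a naive mean of 7.29. ZBTB38, a zinc finger protein that binds methylated DNA, averaged 7.84 ± 0.16 in line 1 and 6.33 ± 0.20 in line 2 around 6.86. MTARC2, a mitochondrial molybdenum enzyme, averaged 8.32 ± 0.07 in line 1 and 6.82 ± 0.25 in line 2 around 7.44. The non-coding RNA DGCR5, in the chromosome 22 stretch, averaged 6.71 ± 0.30 in line 1 and 8.16 ± 0.32 in line 2 around 7.28. RPL19, a protein of the large ribosomal subunit, averaged 10.69 ± 0.23 in line 1 and 9.66 ± 0.15 in line 2 around 10.51; it was the 1 call among 36 cytosolic ribosomal protein genes (median 0.18), and a second feature gave 0.28. Its difference of 1.03 ± 0.13 fell to 0.97 without array 1 of line 1 and to 0.97 without array 1 of line 2. EDNRB, an endothelin receptor, averaged 6.31 ± 0.23 in line 1 and 5.03 ± 0.04 in line 2 around 5.33.

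Most of the measured gene lists held no call between the lines, among them several tied to drug resistance. Of 37 lists, 36 had measured members, and the drug transporters (10 listed, 0 measured) could not be assessed. Of these 36, 25 gave 0 calls by limma at this size. With 1.06% of all genes called, short lists often hold no call, so 0 calls is not a result about these groups. The 25 lists hold 426 measured genes, of which 157 (36.9%) had an unadjusted p under 0.05, against 29.8% of all genes. At an adjusted p under 0.05 without the size condition they numbered 115 (27%), against 18.7% of all genes. They include the drug target kinases (7 measured, differences from -0.41 to 0.13), the SRC family and other bypass kinases (28), STAT5 targets (13), the BCL2 family (19), adhesion molecules (21) and extracellular matrix genes (20). Against naive cells some of these lists held calls in line 1: 3 of the bypass kinases, 5 of the matrix genes, 1 each of the drug targets, STAT5 targets and BCL2 family, while the adhesion molecules differed from naive by -0.68 to 0.96 in line 1 with no call. In line 2, 5 bypass kinases were called higher and 2 lower, and 3 matrix genes higher and 1 lower. Line 2 also had 2 STAT5 targets lower, 1 BCL2 family gene lower and 2 adhesion molecules higher (CD58 and ICAM2). KIT, a receptor tyrosine kinase that imatinib also inhibits, was the 1 drug target called in line 1 and in line 2, lower in both. The 34 cell cycle and mitosis genes had 0 calls between the lines by limma (13 at an adjusted and 17 at an unadjusted p under 0.05). Their median difference was -0.23, against 0.02 over all genes. Against naive, 4 were higher in line 1 (median 0.66) and 14 in line 2 (median 0.91). Marker lists of other blood cells (mast cells with basophils, lymphoid cells, granulocytes with monocytes) gave 0 calls between the lines by limma among 11, 26 and 19 measured genes. Without the size condition 0, 1 and 4 passed at an adjusted p under 0.05 (0, 2 and 6 unadjusted). Over all lists 18 of 629 members were called (2.86%, against 1.06% of all genes), a share that cannot be read as enrichment since the lists were drawn up with earlier results of these arrays known.

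Some lists held smaller differences, most of them under the size condition. Of the 36 ribosomal protein genes, 12 were higher in line 1 at an adjusted p under 0.05 (limma), 0 were lower and the rest did not pass. Of all genes, 9.96% were higher and 8.77% lower by this test. RPL36, RPL28 and RPL10, all of the large subunit, differed by 0.86 ± 0.11, 0.65 ± 0.12 and 0.55 ± 0.08, and RPS27 of the small subunit by 0.57 ± 0.10. Of the 34 cell cycle genes, 13 were lower in line 1 by the same test, 0 were higher and the rest did not pass. KIF4A, a chromosome-binding kinesin of mitosis, read 8.17, 8.39, 8.29 and 8.23 in line 1 and 8.85, 9.07, 9.01 and 9.01 in line 2, against 7.94 to 8.45 in naive cells, a difference of -0.71 ± 0.10. PLK1, the kinase that drives mitotic entry, read 10.37, 10.53, 10.55 and 10.15 in line 1 and 10.91, 11.03, 10.80 and 10.87 in line 2, against 9.32 to 10.09 in naive cells. Both lines were thus above naive for PLK1, line 2 the more so. Of the 18 erythroid genes 9 passed downwards and 2 upwards. GATA1 and its partner LMO2 differed by -0.57 ± 0.09 and -0.60 ± 0.11, and EPOR, the erythropoietin receptor, by -0.58 ± 0.11, whereas CA1 and CA2, the red cell carbonic anhydrases, differed by 0.79 and 0.71. FECH, the enzyme that inserts iron into heme, read 9.25, 9.35, 9.12 and 8.82 in line 1 and 9.94, 10.07, 9.85 and 9.93 in line 2, against 7.46 to 8.08 in naive cells. In the integrated stress response list 6 of 18 passed upwards and 1, PSAT1, downwards. The 6 include PSPH, which completes serine synthesis after PSAT1 (0.68 ± 0.10), CBS, an enzyme of the path from homocysteine to cysteine (0.63 ± 0.11), and ASNS, asparagine synthetase (0.37 ± 0.09). Leaving out each array of the lines in turn gave 11 to 15 ribosomal genes upwards, 8 to 13 cell cycle genes downwards, 6 to 8 erythroid genes downwards and 4 to 5 stress response genes upwards. The count of 8 cell cycle genes came without array 4 of line 1, where that list's median was -0.13. The 4 list medians kept their sign under these omissions and under the 3 other scalings, with the technical axis out giving 1 ribosomal gene downwards. The share of cells in each cycle phase was not measured.

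Among the other resistant lines, highIM-R2 stood nearest to the low dose lines, at 0.343 from line 1 and 0.288 from line 2. For 118 of the 158 called genes (74.7%) its mean lay nearer to line 2, against 54.6% of all genes. The share was 53.8% for highIM-R1 (48.6% of all genes), 44.9% for nilotinib line 1 (48%) and 57% for nilotinib line 2 (55.9%). It differed by direction. For genes higher and lower in line 1 it was 82.3% and 62.9% in highIM-R2 and 66.7% and 33.9% in highIM-R1. In nilotinib line 1 it was 58.3% and 24.2%, and in nilotinib line 2 62.5% and 48.4%. The pair of high dose lines repeated some of the calls: 18 of the 62 genes lower in low dose line 1 were lower in highIM-R1 than in highIM-R2 (29%, against 2.73% of all genes; 4.42% of the genes called lower in that pair), and 17 of the 96 higher were higher there (17.7%, against 2.86%; 3.99% of that pair's). A further 10 of the 96 (10.4%, against 2.73% of all genes) and 6 of the 62 (9.68%, against 2.86%) were called the opposite way. In the nilotinib pair, 13 of the 96 genes (13.5%) were called the same way (line 1 the higher) and 14 (14.6%) the opposite way. Of the 62 genes 11 (17.7%) were called the same way (line 1 the lower) and 6 (9.68%) the opposite way. In that pair 1.9% of all genes were called in each direction. The shares in both pairs were thus above those of all genes whether the direction was the same or opposite. BCOR averaged 7.63 in highIM-R1, 5.01 in nilotinib line 1 and 8.51 in nilotinib line 2, and it read 8.86 to 9.06 on the highIM-R2 arrays. It was thus low in low dose line 1 and nilotinib line 1 and near or above naive in the other lines. SNAI2 was high in the same pair, at 11.47 in nilotinib line 1 and 6.01 to 6.30 in the other 3 lines. GAGE13 averaged 9.29 in highIM-R1, 8.52 in highIM-R2, 7.37 in nilotinib line 1 and 10.55 in nilotinib line 2, against 10.10 in naive cells, so its mean was below naive in low dose line 2, both high dose lines and nilotinib line 1. MSI1 averaged 8.52 in highIM-R2 and 5.86 to 6.13 in the other 3, so it was high in low dose line 2 and highIM-R2. NPY1R averaged 9.43 in highIM-R2 and 5.42 to 5.92 in the other 3.

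**Figure D4:**
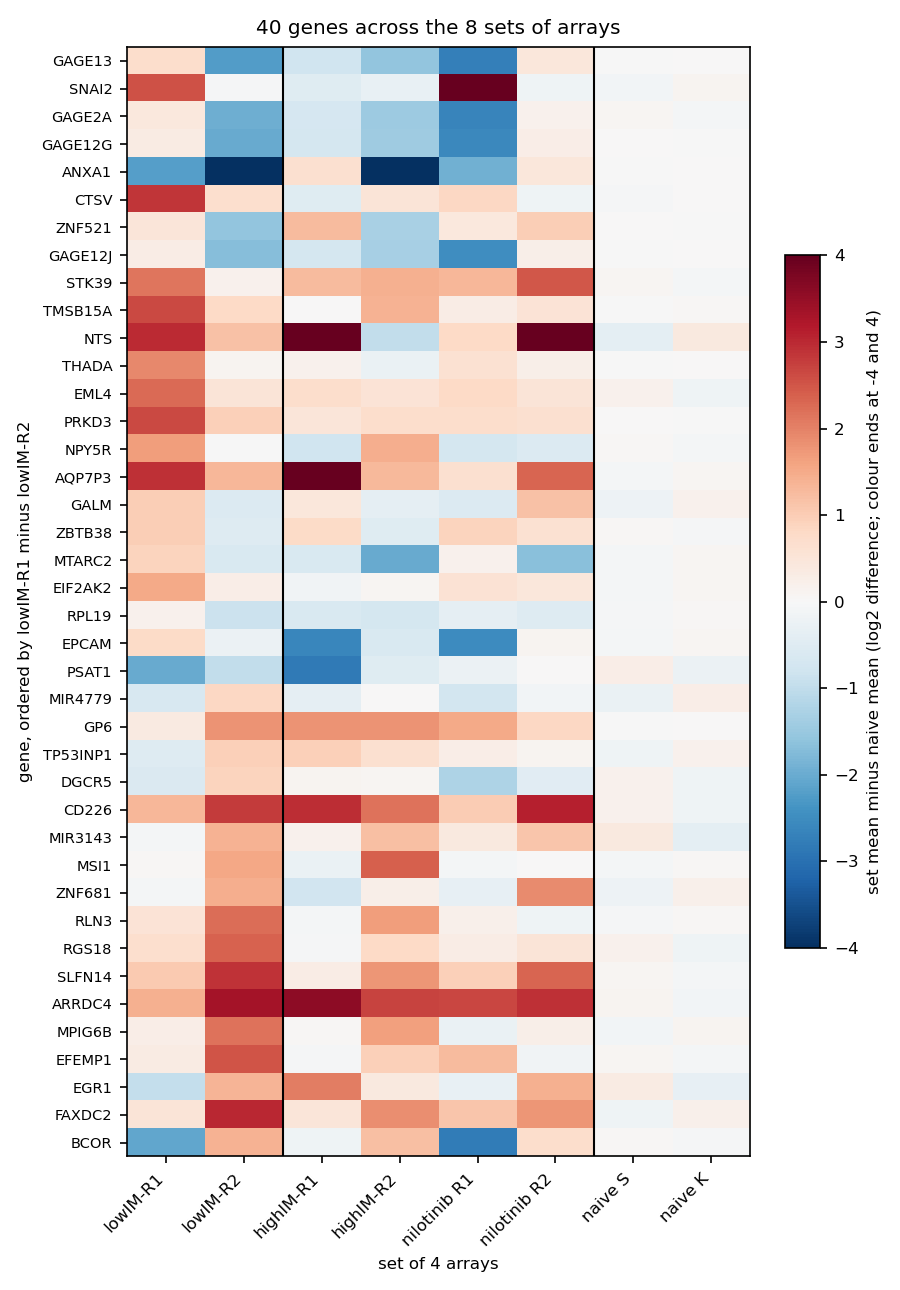
Set mean minus naive mean (log2 difference, colour) of the 40 named genes in the 8 sets of 4 arrays, ordered by lowIM-R1 minus lowIM-R2; colours end at -4 and 4, and some values lie beyond them, such as ANXA1 in lowIM-R2 (-4.38). BCOR, at the bottom, is low in lowIM-R1 and nilotinib R1, and SNAI2, near the top, is high in the same sets.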

How the data were processed

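Whole-transcript arrays of K-562 RNA were read as deposited: the authors' values are log2 intensities per feature, made with Transcriptome Analysis Console 4.0 per the submitters' processing notes. The sources used here do not give their normalization, the base of the logarithm was inferred, and no detection calls were used. Of 53617 features, 16098 carried 1 gene symbol; the brightest feature stood for each of 14884 genes (779 had several). Symbols and gene order came from the GRCh38.p14 annotation.

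limma 3.58.1 (R 4.3.3) was fitted to all 32 arrays with 1 mean per set of 4 (24 residual degrees of freedom), and p-values were adjusted by Benjamini-Hochberg over all genes. A call needed an adjusted p under 0.05 and a log2 difference of at least 1. Errors after ± are limma standard errors beside differences and SDs over 4 arrays beside means. The fit was tested on simulated data. The number of arrays limits the precision.

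The comparison, the gene lists and the rules were chosen with earlier results of these data known. Genes named by rule were the 15 largest differences in each direction with non-overlapping arrays, the 6 largest of each class of movement, and each list's largest called member; other called genes were named after their values were seen. Alternatives changed normalization, features, filters, variance prior, size condition, arrays and naive level. Arrays of the same number did not deviate together (correlations -0.104 to 0.0367), so the numbers are not pairs. Levels of different genes are not compared. Overlapping or near-identical genes may share signal.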

Additional observations from a re-analysis of the deposited data

Results flagged for a closer look

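Among the 80 groups of 4 arrays formed by the 40 named genes in the 2 lines, 3 (3.75%) held an array far from the other 3 by Dixon's criterion, where chance gives about 1 in 20. ZNF521, the progenitor zinc finger gene, read 5.97 on array 3 of line 2, against a mean of 6.33 on the other 3. GAGE12J, a cancer-testis gene, read 9.80 on array 1 of line 1, against 9.56. EPCAM, the epithelial adhesion gene, read 9.55 on array 2 of line 1, against 9.16. In each case the arrays of the 2 lines still did not overlap.

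BCOR, the corepressor gene, was the 1 called gene whose lines both met the size condition on opposite sides of naive, by -2.06 in line 1 and by 1.40 in line 2. The difference between these effects is the comparison of the lines itself, -3.46 ± 0.11 (adjusted p = 2.46e-21, limma). All 4 arrays of line 1 were below, and all 4 of line 2 above, every naive array. The same order of arrays held for EGR1, whose line 1 change fell short of the size condition.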

How the results depend on the processing

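Other normalizations, filters, variance priors and left-out arrays mostly kept the counts within 1.5 times of those reported, apart from the values below. Counting every feature instead of 1 per gene gave 402 higher and 381 lower in line 1 than in line 2, 1849 for line 1 against naive, 2013 for line 2 against naive, 206 moved in line 1 only, 238 in line 2 only, 40 in both to the same side and 298 in neither. A size condition of 0.58 gave, in the same order, 447, 408, 2412, 2571, 244, 281, 131 and 195, with 4 genes moved to opposite sides; a size of 2 gave 7, 4, 55, 77, 3, 4, 1 and 3, with 0 to opposite sides. Testing against a size of 1 (limma treat) gave 25, 12, 203, 252, 14, 14, 2 and 6. These counts change by construction. Genes moved to opposite sides numbered 2, in place of 1, with the technical axis taken out, under quantile normalization and against naive S alone, and genes moved in neither line fell to 28 without the dimmest 40%; the cause was not tested. Stretches numbered 15 with windows of 15 genes and 25 with a threshold of 0.3.

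Leaving out each array in turn gave 87 to 122 genes higher and 58 to 73 lower in line 1 than in line 2. It gave 554 to 763 for line 1 and 654 to 784 for line 2 against naive. The classes of movement ran from 50 to 73 for line 1 only, 39 to 46 for line 2 only, 17 to 20 for both to the same side, 1 to 2 for opposite sides and 45 to 49 for neither. The 122 genes higher, the 763 for line 1 against naive and the 73 for line 1 only all came without array 4 of line 1. With the array number as a replicate block there were 158 calls, as without it. With the technical axis taken out 158 of the 158 were among the 159 calls, and 135 kept their class. Of the 40 named genes 0 reversed, 37 stayed called without each array in turn and 28 under all alternatives other than the changed size conditions. The count of 28 includes the test against a size of 1 (limma treat), which by itself kept 28. Quantile normalization kept 40, and a shift of arrays to the same median kept 39. EPCAM missed the size condition with arrays shifted to the same median (0.99), and RPL19 with a gene's features averaged (0.66). Technical arrays limit every p-value to the spread between arrays.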
